A study of Mus musculus with 2 samples.

Results

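Golgi stress is the state of a Golgi apparatus whose capacity is exceeded, and cells answer it through several transcription factor branches. The 10 genes described here belong to the TFE3 branch and the CREB3 branch: the transcription factors Tfe3 and Mlx, the membrane-bound factors Creb3, Creb3l1, Creb3l2 and Creb3l4, and Fut1, Uap1l1, Stx3 and Siah1a, taken as reported targets. They were chosen by name, as every non-control probe that the array design assigns to these genes, and they are 10 of the 37073 gene names on the array. Measured values played no part in that rule, but the choice was made with earlier results of these data known.

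Total RNA of whole brain from C57BL/6J mice at postnatal day 10 was measured on 1-colour Agilent expression arrays. The groups were GPHR F/F;Nes, 1 sample, and its littermate control GPHR F/F, 1 sample. GPHR stands for Golgi pH regulator, a channel that lets anions cross Golgi membranes, and the mouse gene is Gpr89. By its title, the series concerns brain that has lost GPHR. What F/F and Nes stand for, which cells lose the gene, and whether an RNA sample came from 1 animal or a pool are not given in the sources used here.

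In the TFE3 branch, as worked out in cultured mammalian cells, TFE3 is held in the cytosol in a phosphorylated form, loses phosphates under Golgi stress, enters the nucleus and binds the Golgi apparatus stress response element (GASE). GASE lies upstream of genes for glycosylation enzymes, Golgi structural proteins and vesicle transport factors, and MLX, a related helix-loop-helix protein, is known to compete for it. CREB3 and its relatives sit in the endoplasmic reticulum membrane, travel to the Golgi and are cut there by site-1 and site-2 proteases, which frees a transcription factor for the nucleus. The known activation steps of both branches act on protein, whereas the arrays measured RNA.

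Both arrays were on 1 slide and scanned on the same day. Each held 62976 spots, with a share of probes well above background of 69.2% in GPHR F/F;Nes and 67.0% in GPHR F/F, and 0 saturated probes. The 75th percentile lay at 173.4 units in GPHR F/F;Nes and 259.5 units in GPHR F/F, and each array was set to its own 75th percentile, so that "higher" and "lower" are relative to it. Each difference is a log2 value, the level in GPHR F/F;Nes less that in GPHR F/F. With 1 array a genotype no difference has a replicate check, no test was possible and no p-value is given. Each ± of a signal is an error that the scanner software computes. The ± of a difference or gene mean, called the scanner error below, was derived from those errors with probes taken as independent. It is technical and holds nothing of the disagreement between probes or of the spread between animals. In bulk RNA, fewer cells of a type and less RNA per cell cannot be told apart. Gpr89, the gene of the title, had signals of 20.04 units in GPHR F/F;Nes and 43.3 units in GPHR F/F, a difference of -0.53 ± 0.22, and whether its probe lies in the part that was removed was not analysed here.

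Both arrays measured 23948 genes. Of these, 7.93% stood 2-fold or more higher in GPHR F/F;Nes and 1.37% stood 2-fold or more lower, and the median difference was 0.07. Thus 85.3% of the genes past 2-fold were higher, a share that was 57.1% with each array centred on its median, 68.6% after quantile normalization, 74.8% after a loess correction on level and 1.31% with scaling to spike-in RNAs. Those scalings put the all-gene median at -0.20, -0.03, 0.02 and -0.95. Dim probes differed more than bright ones: of 3 equal parts of 12239 probes each, the dimmest had a median of 0.29, with 13.2% at least 2-fold higher, the middle part a median of 0.03, with 5.33%, and the brightest a median of -0.10, with 2.83%.

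The array carried 19 probes for the 10 genes, each 60 bases long with 1 spot and a GC content between 35% and 55%. Of these, 14 were well above background on both arrays, 1 only in GPHR F/F;Nes, 2 only in GPHR F/F and 2 on neither. The probes of Mlx, Fut1 and Stx3 went opposite ways, while those of Creb3l2 that were measured went the same way. The first 30 bases of each are shown for that reason, as the scanner output lists them, with positions on mm9.
Mlx probe 1 (A_51_P261443, chr11:100952426-100952485, plus strand): ctacgagagattgtgatcggtgtccttcat
Mlx probe 2 (A_66_P117739, chr11:100952890-100952949, plus strand): cagttcttaagttagaaaaaaggaaaagaa
Fut1 probe 1 (A_55_P2483347, chr7:52875733-52875792, plus strand): ttgttagagagatgagaacaattggaggac
Fut1 probe 2 (A_55_P1986247, chr7:52876318-52876377, plus strand): tattcccttccaagagcaacttctattctt
Creb3l2 probe 1 (A_51_P500643, chr6:37277408-37277467, minus strand): ttaaatccaagtgcagtgcaagtctgtgaa
Creb3l2 probe 2 (A_52_P343856, chr6:37281208-37281267, minus strand): acccacagtggtaccttttacagtcaggtt
Stx3 probe 1 (A_55_P2909641, chr19:11850437-11850496, minus strand): tagtcaagctttgatttcattcatggatga
Stx3 probe 2 (A_55_P2171658, chr19:11852038-11852097, minus strand): ggccagctgaaagtttgaaatgccacatat
Stx3 probe 3 (A_66_P135726, chr19:11857297-11857356, minus strand): gggctttgtggaacgggctgtggcagatac

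These probes recognise different stretches of 1 gene. The probes of Mlx lie 404 bases apart, those of Fut1 525 bases apart, those of Creb3l2 3740 bases apart, and those of Stx3 1541 and 5199 bases apart. No mm9 gene models were used here, so whether a probe lies in coding or untranslated sequence was not analysed here.

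Most of the genes stood a little higher in GPHR F/F;Nes. Of the 9 measured genes, 8 had a difference above 0 and 1 below, where 57.0% of all measured genes were above 0, and their median was 0.45 against 0.07 over all genes. With scaling to spike-in RNAs 1 of the 9 was above 0, and with centring on the median 5. Past 2-fold in the higher direction was 1 gene, Fut1, and past 2-fold in the lower direction were 0, against the 7.93% and 1.37% of all genes. Among the 14 measured probes, 2 stood 2-fold or more higher and 0 stood 2-fold or more lower, where 7.11% and 1.45% of all measured probes were. In 7 of the 9 genes the difference exceeded the scanner error, and in 5 it exceeded 2 such errors. The share of all genes past these errors was not computed, so the counts mark no trait of the 9 genes. The 7 include Mlx and Stx3, whose probes went opposite ways.

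**Figure D1:**
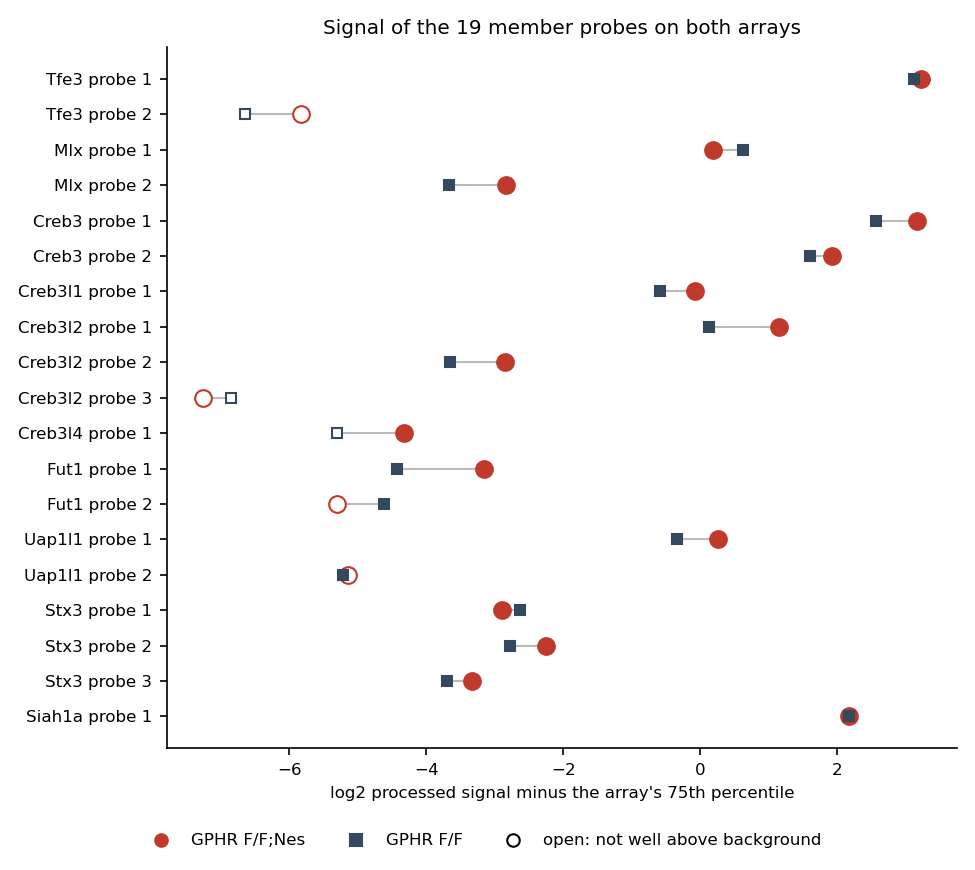
Signal of each of the 19 probes in GPHR F/F;Nes (red circles) and GPHR F/F (dark squares), as log2 processed signal minus the array's 75th percentile; open symbols are not well above background. Of the 14 probes with both symbols filled, 11 have GPHR F/F;Nes to the right, and 3, of Mlx, Stx3 and Siah1a, have it to the left.

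Tfe3 encodes the factor that binds GASE. Its probe for transcript variant 5 (A_55_P2811589, mm9 chrX:7352259-7352318, plus strand) read 1629 ± 163 units in GPHR F/F;Nes and 2277 ± 228 units in GPHR F/F. After scaling, its levels were 3.23 in GPHR F/F;Nes and 3.13 in GPHR F/F, a difference of 0.10 ± 0.20 or 1.07-fold, within the scanner error. The sign was negative with median centring (-0.18) and spike-in scaling (-0.92), the last beyond the scanner error. A second probe, made to variant 2, was not well above background on either array. With the loess correction the difference was 0.22.

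Tfe3 lies on the X chromosome, and the arrays differed in sex-linked RNA. Xist, the noncoding RNA of X inactivation, read 234 units in GPHR F/F;Nes and was not well above background in GPHR F/F (at least 55.8-fold higher). The Y-linked Ddx3y, Eif2s3y and Uty were well above background in GPHR F/F alone, with Eif2s3y at least 93.7-fold lower in GPHR F/F;Nes by one probe and at least 15.7-fold lower by the other. Sex and genotype therefore cannot be told apart in these data. The 1363 measured probes on chromosome X had a median difference of 0.05, against 0.04 over all measured probes.

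Mlx encodes the helix-loop-helix protein that competes with TFE3 for GASE and also pairs with the glucose-sensing factors MondoA and ChREBP. Its probe 1 read 198 ± 19.8 units in GPHR F/F;Nes and 400 ± 40.0 units in GPHR F/F, a difference of -0.43 ± 0.20 or 1.35-fold lower. Its probe 2 read 24.4 ± 2.68 units in GPHR F/F;Nes and 20.4 ± 2.45 units in GPHR F/F, a difference of 0.84 ± 0.23. The probes thus went opposite ways, and the mean, 0.20, had a probe SD of 0.90.

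The gap between the Mlx probes was 1.28. Among the 5034 genes measured by 2 probes the median gap was 0.22, 3.32% had a gap at least as large as that of Mlx, and 30.5% had probes of opposite sign. Probe 2 belongs to the dimmest part of the probes and probe 1 to the middle part. With normexp background correction probe 2 stood at 0.15 and probe 1 at -0.37. No single direction can be given for Mlx.

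Of the 4 CREB3 family genes chosen here, the 3 measured all stood higher in GPHR F/F;Nes with the scaling used here (median 0.51). Of all measured genes, 57.0% were above 0. All 3 were below 0 with spike-in scaling (Creb3 -0.57, Creb3l1 -0.51, Creb3l2 -0.10). Relative to the all-gene median they were above it under all 12 alternatives that recompute values, but not all of these could change that. Median centring and spike-in scaling shift every gene by the same amount, so a gene's distance from the all-gene median is fixed there. Others, such as keeping outlier spots, barely move any value. None of the 3 genes passed 2-fold in the values as reported.

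Creb3, known from human cells to induce ARF4 when the Golgi is disrupted, was read by probes that both lie in the brightest part. Probe 1 (A_52_P135707, mm9 chr4:43579839-43579898) read 1561 ± 156 units in GPHR F/F;Nes and 1548 ± 155 units in GPHR F/F, a difference of 0.59 ± 0.20. Probe 2 (A_52_P231714, mm9 chr4:43578403-43579046) read 657 ± 65.8 units in GPHR F/F;Nes and 792 ± 79.2 units in GPHR F/F, a difference of 0.31 ± 0.20. Before scaling, the signals of each probe thus differed between the arrays by less than both signal errors together. The gene's mean was 0.45 ± 0.14, or 1.37-fold, and 23.6% of all genes had a difference at least as high.

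Creb3l1, also called OASIS, is known from bone cells as an activator of type I collagen genes and is also expressed by astrocytes. Its single probe (A_55_P2746820, mm9 chr2:91822506-91822565, minus strand) read 164 ± 16.5 units in GPHR F/F;Nes and 173 ± 17.4 units in GPHR F/F. The difference was 0.51 ± 0.20, or 1.42-fold higher, and it was 0.52 after the loess correction on level.

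Creb3l2, also called BBF2H7, is known from mouse cartilage, where it drives genes of the secretory pathway. Its probe 1 read 386 ± 38.6 units in GPHR F/F;Nes and 285 ± 28.5 units in GPHR F/F, a difference of 1.02 ± 0.20 or 2.03-fold. This probe was brighter in GPHR F/F;Nes before any scaling, by more than both signal errors together. It lies in the brightest part of the probes, where 2.83% were at least 2-fold higher, and stood at 1.09 after the loess correction and 0.90 after normexp.

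Its probe 2 read 24.2 ± 2.71 units in GPHR F/F;Nes and 20.6 ± 2.53 units in GPHR F/F, a difference of 0.81 ± 0.24 that was 0.16 after normexp. The probes differed by 0.21, a gap that 51.5% of genes with 2 probes equalled or exceeded. The third probe was not well above background on either array. The gene's mean, 0.92 ± 0.16 or 1.89-fold, was equalled or exceeded by 9.37% of all genes.

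Creb3l4, known mainly from testis and prostate, was close to the detection limit. Its probe (A_51_P497882, mm9 chr3:90041531-90041590, minus strand) read 8.67 ± 1.48 units in GPHR F/F;Nes, where it was well above background, and 6.59 ± 1.60 units in GPHR F/F, where it was not. Its scaled difference was 0.98 ± 0.43, or 1.97-fold higher in GPHR F/F;Nes. This fold uses the probe's own signal in GPHR F/F and is not a minimum. After normexp its difference was 0.06.

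**Figure D2:**
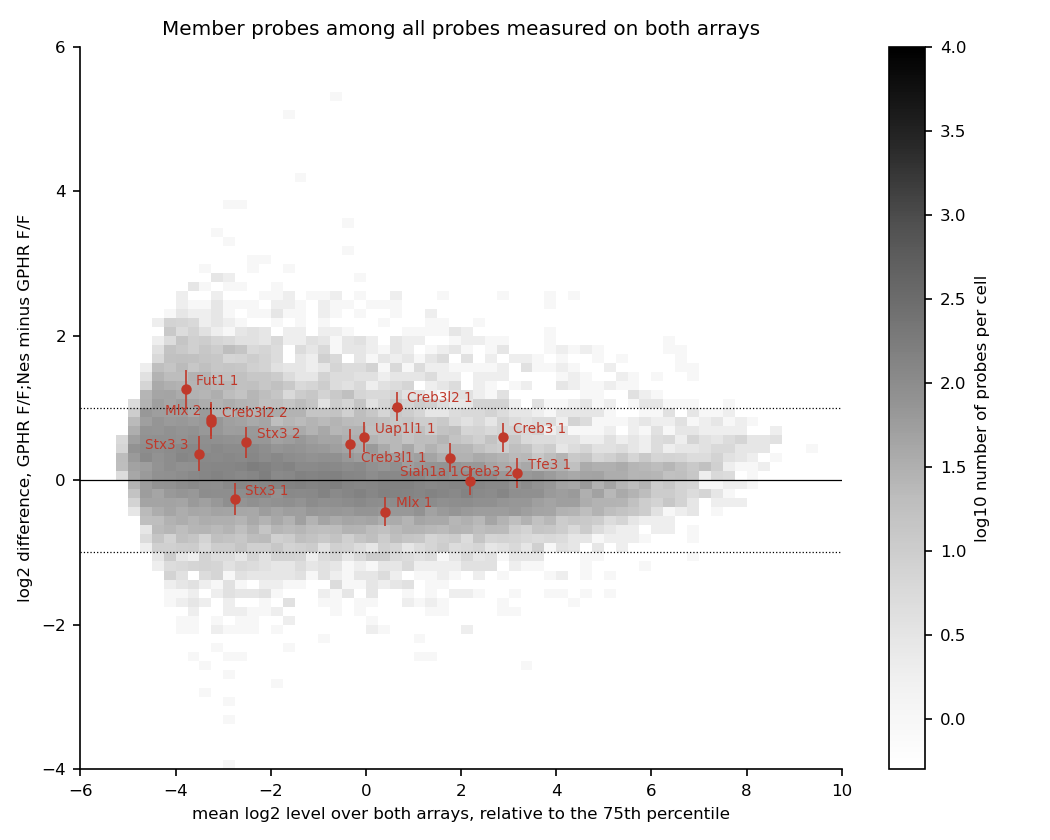
Log2 difference (GPHR F/F;Nes less GPHR F/F) of each measured probe of the 9 genes (red, with the scanner error as a bar) against its mean level, over the 36717 probes measured on both arrays (grey, darker where more probes fall). Dotted lines mark 2-fold. The grey cloud is wider and shifted upward at the dim end, where Fut1 probe 1 lies, while Creb3l2 probe 1 reaches the upper line among brighter probes.

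The 4 genes taken as targets had unlike values, from -0.01 for Siah1a to 1.26 for Fut1, with a median of 0.41. Fut1 encodes a fucosyltransferase that makes the H blood group glycan in the Golgi. Its probe 1 read 19.4 ± 2.21 units in GPHR F/F;Nes and 12.1 ± 1.79 units in GPHR F/F, a difference of 1.26 ± 0.27 or 2.40-fold, and 4.59% of all genes had a difference at least as high.

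Its probe 2 read 4.40 ± 1.11 units in GPHR F/F;Nes, where it was not well above background, and 10.6 ± 1.65 units in GPHR F/F, where it was. The bound for probe 2 was at least 1.40-fold lower in GPHR F/F;Nes, opposite to probe 1. Probe 1 lies in the dimmest part, where 13.2% of probes were at least 2-fold higher, and stood at 0.95 after the loess correction and 0.23 after normexp. The only one of the 10 genes past 2-fold therefore rested on 1 dim probe, with its other probe on the opposite side.

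Uap1l1 encodes a relative of the enzyme that makes UDP-N-acetylglucosamine, the sugar donor of N-glycan synthesis. Its probe 1 (A_51_P509669, mm9 chr2:25217225-25217615, minus strand) read 209 ± 20.9 units in GPHR F/F;Nes and 206 ± 20.7 units in GPHR F/F. The difference was 0.60 ± 0.20, or 1.51-fold, with 0.63 after the loess correction, 0.43 after normexp and -0.42 with spike-in scaling. Its probe 2 passed the background only in GPHR F/F, at levels of -5.15 in GPHR F/F;Nes and -5.21 in GPHR F/F, and gives no bound on a fold.

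Stx3 encodes a syntaxin, a SNARE of the target membrane in vesicle fusion. Its 3 measured probes, all in the dimmest part, did not share a direction. Probe 2, made to variant A, read 36.4 ± 3.80 units in GPHR F/F;Nes and 37.8 ± 4.01 units in GPHR F/F, a difference of 0.53 ± 0.21. Of the probes for variant D, probe 1 read 23.4 ± 2.62 units in GPHR F/F;Nes and 41.8 ± 4.42 units in GPHR F/F, a difference of -0.26 ± 0.22. Probe 3 read 17.3 ± 2.08 units in GPHR F/F;Nes and 19.99 ± 2.44 units in GPHR F/F, a difference of 0.37 ± 0.25. The probes of variant D thus went opposite ways too, and the gene's mean, 0.21 with a probe SD of 0.41, was at or below 0 with median centring (-0.06), quantile normalization (-0.06), the loess correction (-0.0017), spike-in scaling (-0.81) and normexp (-0.01).

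Siah1a encodes a RING-finger ubiquitin ligase. Its probe (A_55_P2485959, mm9 chr8:89248427-89248486, minus strand) read 786 ± 78.6 units in GPHR F/F;Nes and 1180 ± 118 units in GPHR F/F. The difference was -0.01 ± 0.20, and its sign turned with quantile normalization (0.07), the loess correction (0.11) and normexp (0.03). Its relatives had differences of 0.03 ± 0.20 for Siah1b, -0.29 ± 0.20 for Siah2 and 0.18 ± 0.22 for Siah3. Siah1a and Siah1b are close paralogs, and whether the Siah1a probe tells them apart was not analysed here.

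**Figure D3:**
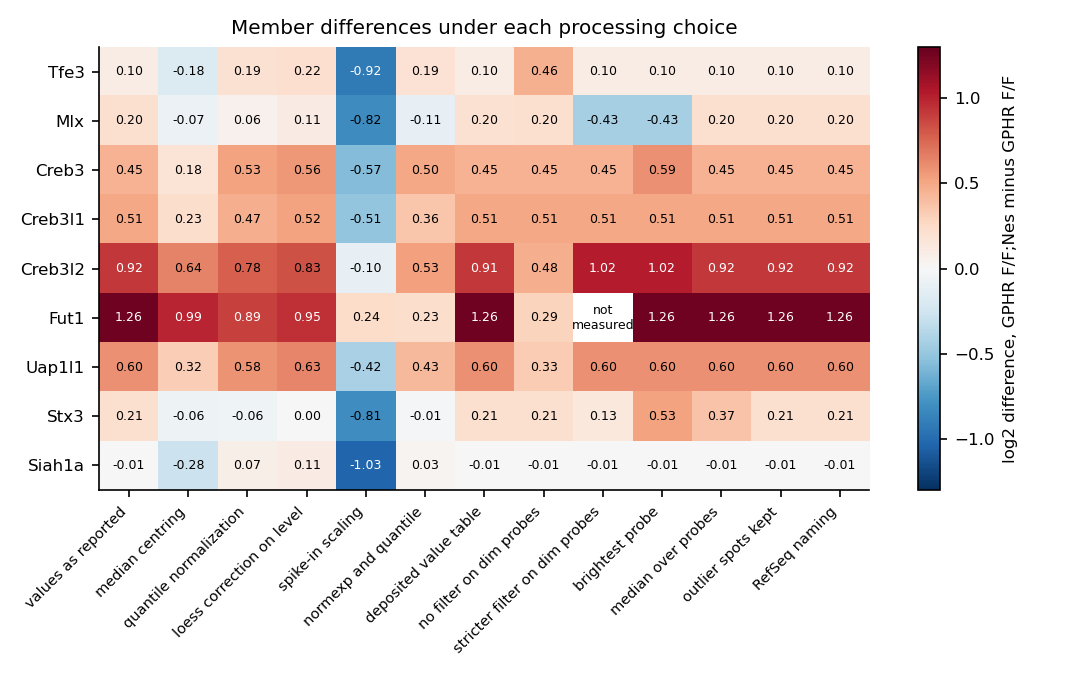
Log2 difference (GPHR F/F;Nes less GPHR F/F) of the 9 measured genes (rows) as reported and under 12 other processing choices (columns), with colour for size and sign. Creb3, Creb3l1, Creb3l2 and Uap1l1 are above 0 in every column but spike-in scaling, Fut1 in every column where it was measured, and Tfe3, Mlx, Stx3 and Siah1a turn sign.

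Promoters were searched for the element that TFE3 binds, since the branch is defined by it. Of the 10 genes, 8 had entries among the RefSeq promoters of GRCm38.p6, with 11 promoters that span 250 bases before to 50 bases after a transcription start. The core of GASE, ACGTGGC, searched on both strands as all motifs were, occurred in 2.58% of all 32851 promoters and in those of 2.95% of the 27025 genes. It occurred in 1 of the 8 genes, Creb3, which is not among the reported targets, at bases 106 to 100 before the start. The E-box CACGTG, which reads the same on both strands and is bound by MLX partners and by TFE3, occurred in promoters of 8.09% of genes and in 1 of the 8 genes, Mlx, at bases 40 to 35 before a start that lies inside the annotated gene. The windows below have the matched letters in capitals, on the gene's strand.
Creb3 (GRCm38.p6 chr4:43562541-43562570, plus strand): tagcccccgggACGTGGCgcagcccaggag
Mlx (GRCm38.p6 chr11:101087238-101087267, plus strand): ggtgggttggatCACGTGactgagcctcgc

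The cyclic AMP response element TGACGTCA, to which CREB-family factors bind, occurred in promoters of 2.03% of genes and in 0 of the 8 genes. The unfolded protein response element TGACGTGG occurred in promoters of 0.714% of genes and in 0 of the 8 genes. The short CCACG, which is part of the endoplasmic reticulum stress element and is contained in the GASE core, occurred in promoters of 35.5% of genes and in 4 of the 8 genes, Tfe3, Creb3, Creb3l4 and Siah1a. These matches are letters in a window and say nothing about binding.

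Of 8 other reported GASE genes 7 were measured, 0 passed 2-fold in either direction and all 7 were above 0, where 57.0% of all genes were. Their median was 0.27, against 0.07 over all genes. It was -0.0028 with median centring and -0.75 with spike-in scaling, where the all-gene medians were -0.20 and -0.95. St3gal6, a sialyltransferase, stood at 0.65 ± 0.13 over 3 probes that ran between 0.38 and 0.92. Wipi1, a phosphoinositide-binding protein of autophagosome formation, stood at 0.58 ± 0.12. Acbd3, a Golgi adaptor protein, stood at 0.30 ± 0.20, and the Golgi matrix proteins Golga2 and Golgb1 stood at 0.27 ± 0.20 and 0.27 ± 0.11. Each of these stayed under 2-fold, and Rab20 was not well above background.

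TFE3 belongs to the MiT/TFE family, which also drives lysosome genes and is held in the cytosol by Rag GTPases and folliculin. Of 10 relatives and regulators 9 were measured, 0 passed 2-fold, 4 were above 0 and 5 below (median -0.11). Tfeb, its close relative, averaged 0.48 ± 0.13 over probes that ran from -0.22 to 1.25. The Rag GTPases Rragb and Rragd stood at -0.38 ± 0.21 and -0.24 ± 0.12, and Mitf at 0.26 ± 0.11.

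Among 14 lysosome and autophagy targets of the family, 0 passed 2-fold, 8 were above 0 and 6 below (median 0.05, against 0.07 over all genes, and -0.23 with median centring). Gpnmb, a glycoprotein of phagocytic cells, stood at 0.85 ± 0.25. The autophagy protein Gabarapl1 stood at -0.38 ± 0.14, the proton pump subunit Atp6v0d1 at -0.36 ± 0.20 and the protease cathepsin D, encoded by Ctsd, at 0.34 ± 0.20. No shared direction was seen in this list.

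Among 12 partners and targets of MLX, 0 passed 2-fold, 7 were above 0 and 5 below (median 0.09, and -0.18 with median centring). Mlxipl, which encodes the glucose-sensing factor ChREBP, stood at 0.74 ± 0.12 over 3 probes between 0.62 and 0.90. Txnip, its known target, stood at 0.45 ± 0.15. Mycn stood at -0.43 ± 0.20 and Mxd3 at 0.32 ± 0.15, both members of the wider MYC/MAX network.

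Of 9 relatives, proteases and cofactors of CREB3, 0 stood 2-fold or more higher and 1 stood 2-fold or more lower, against 7.93% and 1.37% of all genes. The gene past 2-fold, Srebf2, encodes the sterol-regulated factor cut by the same proteases. Its probes read 115 and 526 units in GPHR F/F;Nes, against 359 and 1522 units in GPHR F/F, and the mean difference was -1.01 ± 0.14. Of the proteases, Mbtps1 (site-1) stood at 0.08 ± 0.11 and Mbtps2 (site-2) at -0.43 ± 0.12. Atf6, an endoplasmic reticulum stress factor cut by the same proteases, averaged 0.80 ± 0.18 from probes at 0.03 and 1.56. Atf6b stood at -0.49 ± 0.20 and Creb3l3, the liver member of the CREB3 family, at 0.44 ± 0.23, and the list's median was -0.02, turning to 0.06 after the loess correction.

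Of 10 genes reported as targets of CREB3 or its relatives, 4 stood 2-fold or more higher and 0 stood 2-fold or more lower, against 7.93% and 1.37% of all genes. Above 0 were 8 and below 0 were 2, where 57.0% of all genes were above 0. The list's median was 0.78, against 0.07 over all genes. With spike-in scaling it was -0.24, against -0.95 over all genes. Kdelr3, a receptor that returns chaperones to the endoplasmic reticulum, read 148 units in GPHR F/F;Nes and 36.2 units in GPHR F/F, a difference of 2.62 ± 0.21. Col1a2 and Col1a1, the chains of type I collagen, stood at 2.61 ± 0.21 and 1.44 ± 0.08, and Spp1, the secreted phosphoprotein osteopontin, at 1.07 ± 0.21.

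Arf4, the small GTPase induced by CREB3 in human cells, read 2919 units in GPHR F/F;Nes and 2475 units in GPHR F/F, a difference of 0.82 ± 0.20. Of the COPII coat genes, Sec24d stood at 0.75 ± 0.20, Sec31a at 0.55 ± 0.13 and Sec23a, the known cartilage target of BBF2H7, at -0.08 ± 0.16. The endoplasmic reticulum degradation genes Herpud1 and Edem1 stood at -0.27 ± 0.14 and 0.11 ± 0.16. The coat and degradation genes thus did not share a direction.

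**Figure D4:**
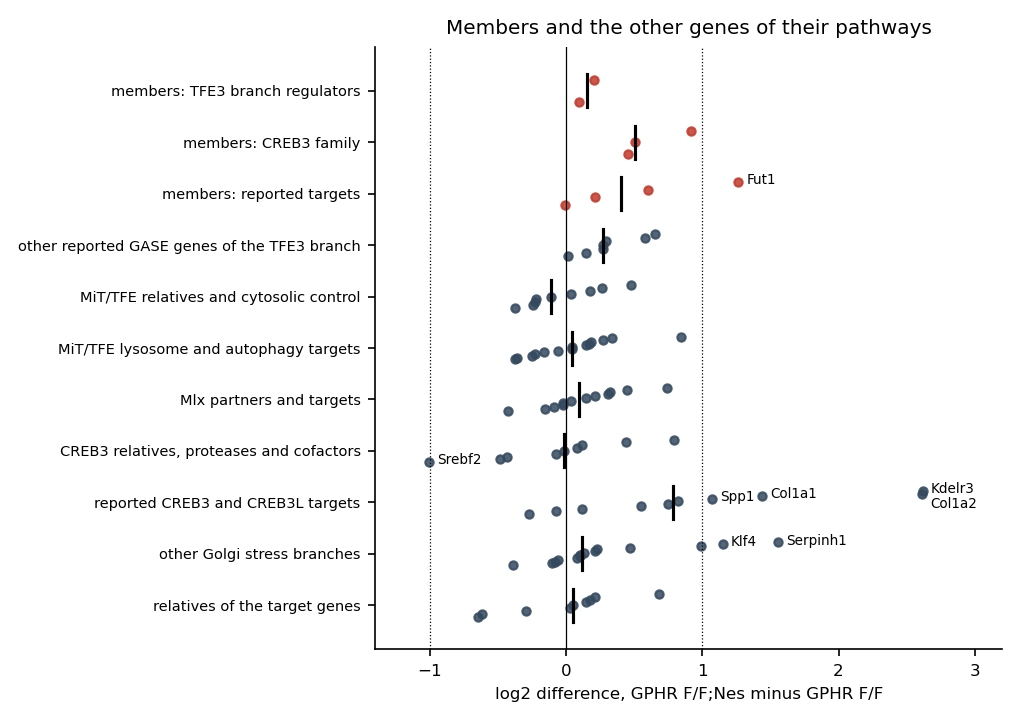
Log2 difference (GPHR F/F;Nes less GPHR F/F) of every measured gene (1 point a gene) in the lists of the 10 genes (red) and of other genes of their pathways (dark), with a black bar at each list's median and dotted lines at 2-fold. The reported CREB3 and CREB3L targets have the highest median of the lists plotted, 0.78, and hold Kdelr3 and Col1a2 at 2.62 and 2.61.

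Markers of several cell types also differed between the arrays, and their part in the result was not tested. Of 12 meningeal and fibroblast markers 11 were measured and 7 were at least 2-fold higher (median 1.44), where 7.93% of all genes were. The summed level of these markers, in multiples of the 75th percentile, was 26.1 in GPHR F/F;Nes and 19.2 in GPHR F/F. Aldh1a2 passed the background only in GPHR F/F;Nes. Below 0 were 2 of the measured markers, Pdgfra at -0.67 and Dcn at -0.07. Col1a1 and Col1a2 are in both that list and the list of CREB3 targets.

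The counts of the next 4 lists stand against 7.93% of all genes at least 2-fold higher, and 13.2% of probes in the dimmest part. Mural cell markers had 6 of 9 measured and 5 at least 2-fold higher (median 1.28, summed level 77.6 in GPHR F/F;Nes and 32.7 in GPHR F/F), with Rgs5 and Kcnj8 not above background. Endothelial markers had 5 of 10 measured and 3 at least 2-fold higher (median 1.20, summed level 6.42 in GPHR F/F;Nes and 2.82 in GPHR F/F), with Cldn5, Cdh5 and Tek not above background. Esam and Emcn, in the same list, passed the background only in GPHR F/F (at least 1.27-fold and 1.04-fold lower in GPHR F/F;Nes). Microglial markers had 10 of 12 measured and 5 at least 2-fold higher (median 1.12, summed level 119.96 in GPHR F/F;Nes and 78.6 in GPHR F/F), with P2ry12 not above background. Choroid plexus markers had 6 of 9 measured and 4 at least 2-fold higher (median 1.35, summed level 12.9 in GPHR F/F;Nes and 3.71 in GPHR F/F), with Kl and Slc4a5 not above background. The size of these medians depended on the processing. With normexp the microglial median was 0.28 and the endothelial one 0.08, and with spike-in scaling they were 0.10 and 0.18. With no filter on dim probes the endothelial median was 0.51, and with the stricter filter the microglial median was 0.32. The markers Abcc9 (mural), Tmem119 (microglial) and Clic6 (choroid plexus) passed the background only in GPHR F/F;Nes. Among the measured markers, Cspg4 (mural), at -0.28, and Pecam1 (endothelial), at -0.07, were below 0.

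The label of brain was borne out by neuronal markers, of which 13 of 13 were measured. All 13 were below 0 with the scaling used here, where 57.0% of all measured genes were above 0. Of these 13, 0 stood 2-fold or more higher and 1 stood 2-fold or more lower, against 7.93% and 1.37% of all genes. The neuronal median was -0.28, and the summed level was 462 in GPHR F/F;Nes and 546 in GPHR F/F. Astrocyte markers had a median of 0.19 over 10 genes and oligodendrocyte markers of 0.11 over 9, with 0 past 2-fold in either list, and both medians were below 0 with median centring and spike-in scaling. Of 6 erythrocyte markers 1 was measured, Hba-a1 at -0.28, and Slc4a1 passed the background only in GPHR F/F;Nes.

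Golgi stress genes outside the TFE3 and CREB3 branches, of the HSP47, MAPK-ETS, proteoglycan and mucin branches with KLF factors included, had 14 measured members. Of these 14, 2 stood 2-fold or more higher and 0 stood 2-fold or more lower, against 7.93% and 1.37% of all genes. The list's median was 0.12, against 0.07 over all genes. With median centring it was -0.16, against -0.20 over all genes. Serpinh1, the collagen chaperone HSP47, read 2163 units in GPHR F/F;Nes and 1100 units in GPHR F/F, a difference of 1.56 ± 0.20. Klf4, a zinc-finger transcription factor, stood at 1.15 ± 0.20, the mucin Muc1 at 0.99 ± 0.35 and Klf2 at 0.47 ± 0.22. The remaining 10 genes of that list stood between -0.39 and 0.22.

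Among 11 relatives of the target genes, 9 were measured and 0 passed 2-fold (median 0.05, and -0.22 with median centring). Stx2, a syntaxin of the plasma membrane, stood at 0.68 ± 0.16 and Stx1a, the syntaxin of the synapse, at -0.65 ± 0.20. Fut8, which adds core fucose to N-glycans, stood at -0.62 ± 0.15, while Fut2 and Fut4 were not well above background. Uap1, the relative of Uap1l1 with the known pyrophosphorylase activity, stood at 0.15 ± 0.20.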

How the data were processed

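Arrays of GPHR F/F;Nes brain and of GPHR F/F brain were analysed, 1 each. The software was Agilent Feature Extraction, version 11.5.1.1, according to the submitters' processing notes. The deposited intensity per spot is background-subtracted and detrended across the array, per the file headers. The deposited raw spot and background intensities served 1 alternative. The deposited log2 table equalled the log2 processed signal plus a constant per array within 0.001 for 99.9% of probes. The constants were -7.43 in GPHR F/F;Nes and -8.01 in GPHR F/F, and the column medians -2.92 and -3.19. The log2 75th percentiles with the sign reversed, -7.44 and -8.02, lay close to these constants. That table thus nearly repeats the scaling used here. How the constants were set is not stated in those sources.

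From 59305 non-control spots, 96 flagged as outliers were left out. Spots were averaged per probe on the log2 scale and the 75th percentile of the 56603 probes was subtracted. A probe was measured when well above background on both arrays (36717 probes), and a gene was the mean of its measured probes (23948 genes). A probe above background on 1 array got a bound against the higher of its own dim signal and the lowest signal above background there (5.06 units in GPHR F/F;Nes and 6.28 units in GPHR F/F). Where its own dim signal was the higher, as for Creb3l4, the value is a plain fold and not a minimum. The number of arrays limits the precision.

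The members and the lists were chosen with earlier results of these data known. Named were all members, each list's genes past 2-fold, up to 4 genes with the largest differences, Gpr89 and sex-linked checks. Golgb1, Mbtps1, Mbtps2, Arf4, Sec24d, Sec31a, Sec23a, Herpud1, Edem1, Uap1, Siah1b and Siah3 were added after their values were seen. Analyses used pandas 2.3.3 and numpy 2.4.6 under Python 3.11.15, and R 4.3.3 with limma 3.58.1 for loess (span 0.3), quantile and normexp (offset 50). The calculation was tested on simulated data with less noise than the scanner errors and with all changed genes set past 2-fold. That test cannot speak to values near 2-fold or to dim probes.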

Additional observations from a re-analysis of the deposited data

How the results depend on the processing

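Of the measured genes, 1 (Fut1) stood 2-fold or more higher and 0 stood 2-fold or more lower as reported, and 14 alternatives were tried. The number at least 2-fold higher was 0 with median centring, quantile normalization, the loess correction, spike-in scaling, normexp, no filter on dim probes and the 3-fold threshold, was 2 with the brightest probe of each gene (Fut1 and Creb3l2) and 3 at the 1.5-fold threshold. The number at least 2-fold lower was 1 with spike-in scaling (Siah1a, -1.03) and 0 under the others. The stricter filter on dim probes also gave 1 gene higher, but it was Creb3l2 (1.02), with Fut1 no longer measured. Across the array, 1900 genes stood 2-fold or more higher and 328 lower as reported, against 1077 and 809 with median centring, 1233 and 565 with quantile normalization, 143 and 10753 with spike-in scaling, 326 and 90 with normexp, 5517 and 781 with no filter, 880 and 236 with the stricter filter, 4346 and 1363 at 1.5-fold and 548 and 60 at 3-fold. Fut1 ran from 0.23 to 1.26 and was above 0 in 11 of 11 alternatives that measured it. Creb3, Creb3l1, Creb3l2 and Uap1l1 were above 0 in 11 of 12, Tfe3 in 10, Mlx and Stx3 in 7 and Siah1a in 3. Not all of these alternatives could change a sign. Fut1, Tfe3, Creb3l1, Uap1l1 and Siah1a had 1 measured probe, for which the brightest probe and the median over probes repeat the reported value. RefSeq naming, kept outlier spots and the deposited table moved values little, with Fut1 at 1.26 in each. Mlx was -0.43 with the brightest probe or the stricter filter. The causes of these shifts were not tested. No paired analysis was possible because each genotype had 1 array, and for the same reason no replicate could be left out. Signals near background limit Fut1, Stx3 and Creb3l4 and the second probes of Mlx and Creb3l2.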
